A study of Rattus norvegicus with 6 samples.

Results

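The Arp2/3 complex is the actin nucleator that starts new filaments as branches on the sides of existing ones. Its 9 subunit genes (Actr2, Actr3, Arpc1a, Arpc1b, Arpc2, Arpc3, Arpc4, Arpc5 and Arpc5l) were followed in cultured rat dermal fibroblasts with and without a hairpin that targets lnc-URIDS, a long non-coding RNA. The genes were found by matching the RefSeq accession of each array probe to a symbol. All 9 were present, with 11 of the array's 30367 gene probes, and all 11 probes were well above background on all 6 arrays. They are 9 of the 10751 named genes tested. The complex was selected on the log2 fold change of Arpc3 between knockdown and control on these same arrays, so the Arpc3 difference is described here without a test. The other 8 subunits belong by membership of the complex, though earlier results of these data were known when the members were chosen.

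The complex holds Arp2 and Arp3, actin-like proteins encoded by Actr2 and Actr3 that come together to resemble the end of a filament from which a daughter filament grows. The products of Arpc2 and Arpc4 form the core that binds the mother filament, while Arpc3 sits beside Arp3 and helps to bring it into the active position. The Arpc1 and Arpc5 positions can each be filled by either of a pair of related proteins, ARPC1A or ARPC1B and ARPC5 or ARPC5L. In fibroblasts, branched actin drives the lamellipodia with which the cells spread and migrate, and it is switched on by WASP and WAVE family proteins downstream of Cdc42 and Rac.

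The control samples carried a control lentivirus (control, n = 3) and the others an lnc-URIDS shRNA lentivirus (knockdown, n = 3). Both groups had a multiplicity of infection of 10, selection with puromycin at 2 µg/mL, and a time of 48 h. The labels name no strain, age or sex, no hairpin sequence, and do not say whether the samples came from separate cultures, so any p-value speaks only of the spread among these 6 samples, part or all of which may be technical. No probe named here carries the name lnc-URIDS, so the knockdown itself was not checked. Each sample was read on 1 one-colour array, on which 20898 to 22489 gene probes were well above background, no spot was saturated, and the 75th percentile of the signal lay between 1494 and 1612 units; the number of arrays limits the precision. Of 12 fibroblast markers 11 were on the array, and 9 of these were well above background on all 6 arrays, among them Col1a1, Col3a1, Pdgfra, Thy1 and Vim. The probes of Dcn and Lum, which fibroblasts also express, were well above background on 0 of the 6 arrays.

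Arpc3 signal was 1.91-fold as high in knockdown as in control fibroblasts. The probe of Arpc3 was printed 10 times on each array, and its mean processed signal was 7537, 5445 and 6680 units in controls 1, 2 and 3 and 11931, 12159 and 11893 units in knockdown 1, 2 and 3. The 3 knockdown arrays lay close together and above every control array, and control 2 was the lowest. On the log2 scale relative to the array's 75th percentile, the values were 2.33, 1.76 and 2.08 in the controls and 2.98, 3.0 and 2.98 in knockdown. The log2 fold change (knockdown minus control) was 0.93 ± 0.14 (SE, n = 3 per group), with 0.94 within slide 1 (2 arrays per group) and 0.90 within slide 2 (1 array per group). Among all 18461 features tested, 44 (0.238%) had a fold as large or larger in that direction, and the groups did not overlap with knockdown higher in 9.93%; because the gene was picked for this difference, nothing is read from that rank.

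The repeated spots show the printing and scanning error within an array. Labelling and hybridization are shared by the spots of an array, so any error from them stays in the spread between samples. Within an array the 10 Arpc3 spots had an SD of 0.043 to 0.063 on the log2 scale, close to the median SD of 0.047 over the 1154 tested probes printed 10 times. All 30 spots on knockdown arrays, the dimmest at 11236 units, were brighter than all 30 spots on control arrays, the brightest at 7951 units. None of the 60 was marked as an outlier by the scanner software, and the local background around them was 18.5 to 33 units. The spots of an array share 1 sample and are not replicates of the condition. Between samples the spread was unequal. The Arpc3 SD was 0.29 among controls and 0.014 among knockdown arrays, and 90.2% of features had a smaller SD than Arpc3 among controls, while 4.16% had a smaller SD among knockdown arrays. The difference between controls 1 and 2 was thus well outside the error of the spots.

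**Figure D1:**
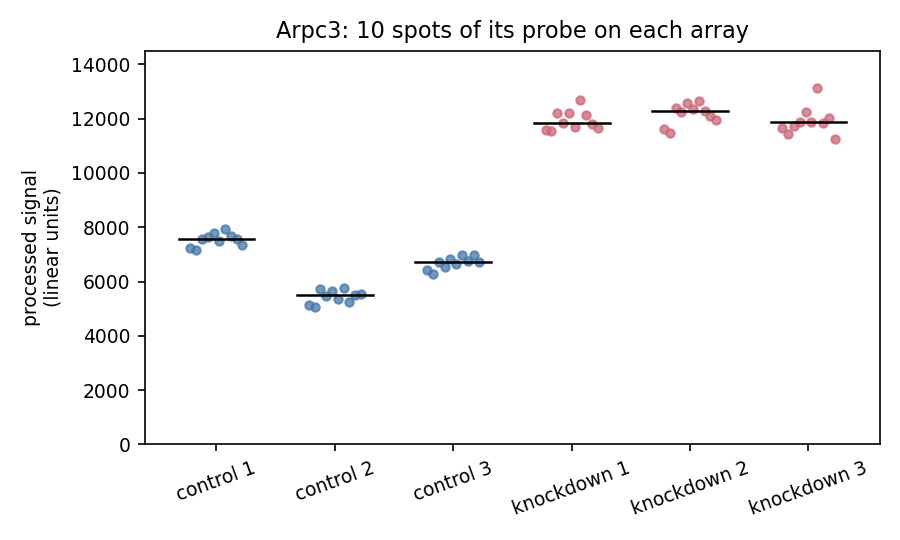
Processed signal (linear units, vertical axis) of each of the 10 Arpc3 spots on the 6 arrays (horizontal axis); points are spots and the black line is the median of an array. The control arrays lie at 3 separate levels below 7951 units, and the 3 knockdown arrays lie together above 11236 units.

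The promoters of the subunits are given as a description of upstream sequence, and a link to the Arpc3 difference was not tested. The RefSeq promoter table (build GRCr8) held 8 of the 9 subunits, and Arpc1a was not among them. The 250 bases before the annotated start of Arpc3 are shown with those of Arpc2, a core subunit, and Actr3, the gene of the protein that Arpc3 adjoins. They are given 5′ to 3′ on the strand of the gene, with the letters CGGAAG, the core recognised by ETS family factors, in capitals.
Arpc3 promoter (chr12:39847437-39847686, minus strand): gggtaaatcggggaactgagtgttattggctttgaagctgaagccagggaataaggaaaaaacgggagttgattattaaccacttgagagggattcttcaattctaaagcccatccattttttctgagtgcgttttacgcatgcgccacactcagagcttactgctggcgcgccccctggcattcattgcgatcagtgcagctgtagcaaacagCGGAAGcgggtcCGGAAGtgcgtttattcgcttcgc
Arpc2 promoter (chr9:83269685-83269934, plus strand): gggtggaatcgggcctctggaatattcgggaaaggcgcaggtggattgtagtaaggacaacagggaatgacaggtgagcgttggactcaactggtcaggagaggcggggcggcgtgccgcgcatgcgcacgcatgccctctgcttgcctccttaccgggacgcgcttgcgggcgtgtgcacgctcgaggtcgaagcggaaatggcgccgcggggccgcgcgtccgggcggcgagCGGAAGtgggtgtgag
Actr3 promoter (chr13:39396510-39396759, minus strand): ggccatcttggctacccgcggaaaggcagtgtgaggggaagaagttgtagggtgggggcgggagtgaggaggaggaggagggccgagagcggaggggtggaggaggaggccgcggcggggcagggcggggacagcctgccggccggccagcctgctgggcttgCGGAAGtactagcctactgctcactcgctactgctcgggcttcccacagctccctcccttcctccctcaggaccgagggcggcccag
All 8 promoters held CGGAAG on either strand, against 13.9% of 33465 promoters of that length in the table and 26.2% of the 9271 promoters of genes tested here. Arpc3, Arpc4 and Actr2 each had 2 copies, and in Arpc3 30 and 18 bases lay between the copy and the start. The GC box GGGCGG was found in 6 of 8 (all but Arpc3 and Arpc4), against 30.5% of all promoters and 55.4% of those of tested genes. The letters CCAAT were found in 2 (Arpc3 and Actr2; 34% of all promoters), and TATAAA (12.9%) and the CArG box of serum response factor (1.5%) in none of the 8, each searched on both strands. The GC content of the Arpc3 window was 49.6%, against 62.8% to 76.4% in the other 7 subunits and a median of 59.6% for tested genes. These matches describe letters in a window, and no binding was measured.

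No other subunit had a difference near the size of that of Arpc3. Of the 8, none had groups that did not overlap, against 21.8% of all features, and in knockdown 6 means were lower (52.8% of all features) and 2 higher (47.2%). The median of their log2 fold changes was -0.06, beside -0.01 over all features. None passed limma's test at an adjusted p under 0.05. Of all 18461 features 0% passed it, so this result does not set the 8 apart. None had an unadjusted p under 0.05 in the main fit, against 14.1% of all features, and limma's smallest was 0.0545 for Arpc5. With array quality weights 2 of the 8 did (5211 of all 18461 features). With normexp alone (1272 features) or an intensity trend (2781) 1 did. Leaving out control 1, control 3, knockdown 1 or knockdown 3 also gave 1 (1481 to 3248 features). Over all features, the calls at that unadjusted level in the main fit were higher in knockdown in 41.7%. That share was 52.9% with quantile normalization and 57% with arrays centred on the median. The 95% intervals of the 8 folds all lay between 0.760-fold and 1.14-fold. The 1.91-fold of Arpc3 was selected for its size and has its own error, so it was not tested against these intervals.

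The actin-like subunits were nearly level. Actr3 signal was 37917, 39443 and 39787 units in controls 1 to 3 and 38194, 37667 and 37488 units in knockdown 1 to 3, with overlapping groups. Its fold was 0.999 with a 95% interval of 0.934 to 1.07 (limma adjusted p = 0.996), and its sign turned with arrays centred on the median and within slide 2. Actr2 signal was 15058, 17856 and 16642 units in controls and 14107, 16122 and 15244 units in knockdown; knockdown 1 was the lowest array and control 2 the highest. The Actr2 log2 fold change was -0.08 ± 0.07 (SE, n = 3 per group; limma adjusted p = 0.691). Of the 9 subunits, Arpc3 and Actr3 were the least variable among knockdown arrays, with SDs of 0.014 each.

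The core subunits stayed near their control level as well. Arpc2, which contacts the mother filament, had 13026, 14694 and 14232 units in controls and 12517, 13499 and 13499 units in knockdown, so that 2 knockdown arrays fell between the controls. Its fold was 0.973 (95% interval 0.893 to 1.06; limma adjusted p = 0.813), and the log2 difference was -0.12 within slide 2 and 0.00061 within slide 1. Arpc4, its partner in the core, was read by the dimmest of the main probes, at 383, 454 and 434 units in controls and 406, 339 and 363 units in knockdown. Knockdown 2 and 3 lay below all controls and knockdown 1 between them. The Arpc4 log2 fold change was -0.15 ± 0.08 (SE, n = 3 per group; limma adjusted p = 0.467), -0.21 within slide 1 and -0.03 within slide 2.

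In the exchangeable positions the paralogs had means on opposite sides of 0, but no member passed the test. ARPC1A and ARPC1B share the position that contacts activators. Arpc1a had log2 values of 1.05, 1.09 and 1.05 in controls and 1.07, 1.17 and 1.17 in knockdown, with knockdown 2 and 3 above all controls. Its log2 fold change was 0.08 ± 0.05 (SE, n = 3 per group; limma adjusted p = 0.547), and its second probe had 0.05 ± 0.05. Arpc1b had 2.52, 2.55 and 2.40 in controls and 2.38, 2.36 and 2.41 in knockdown; only control 3 reached into the knockdown range. Its log2 fold change was -0.11 ± 0.06 (SE, n = 3 per group; limma adjusted p = 0.452). ARPC5 and ARPC5L fill the other position. Arpc5, with the largest change of the 8 on either side, had log2 values of 3.42, 3.63 and 3.51 in controls and 3.30, 3.23 and 3.44 in knockdown, where knockdown 3 lay within the control range. Its fold was 0.874 with a 95% interval of 0.760 to 1.004 (limma adjusted p = 0.364), and within slides 1 and 2 it had log2 fold changes of -0.19 and -0.21. Arpc5l had 0.04 ± 0.05 (SE, n = 3 per group; limma adjusted p = 0.833) and 0.03 ± 0.05 on its second probe, with overlapping groups and a sign that turned within slide 1. Both genes with a second probe, Arpc1a and Arpc5l, thus gave the same sign and nearly the same size on both; Arpc3 has a single probe sequence here, so its change could not be compared between probes.

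**Figure D2:**
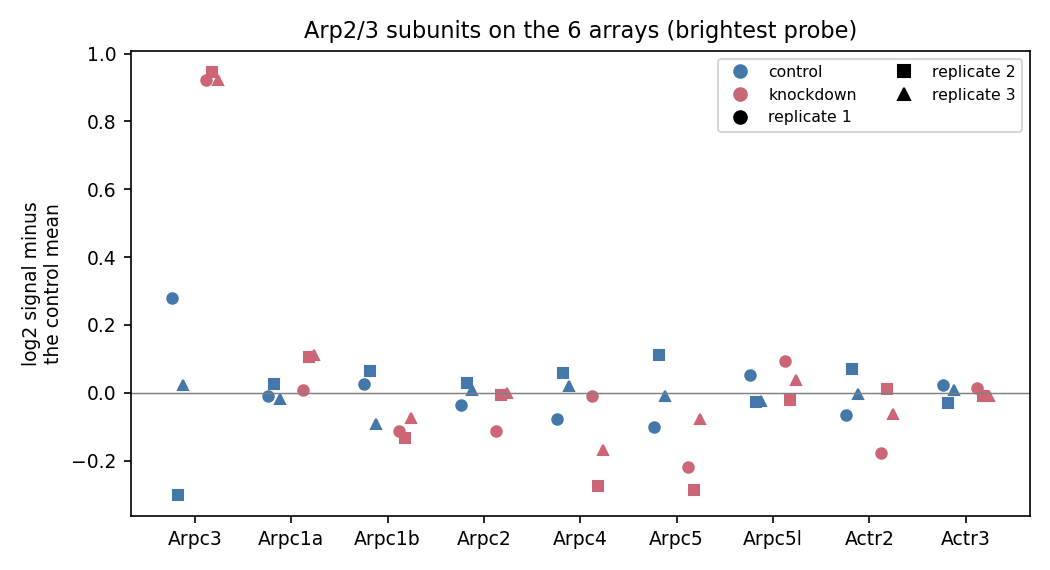
Log2 signal of each subunit's brightest probe on the 6 arrays, minus that subunit's control mean (vertical axis, log2 units); colours are groups and marker shapes are replicates. The Arpc3 knockdown arrays lie 0.92 to 0.95 above the control mean, and in the other 8 subunits the groups overlap.

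Set against the other subunits on the same array, Arpc3 was higher in knockdown while the mean of the others was slightly lower. Relative to its own control mean, Arpc3 was at 0.28, -0.30 and 0.02 in controls 1, 2 and 3 and at 0.92, 0.95 and 0.92 in knockdown 1, 2 and 3. The mean of the other 8 was at -0.02, 0.04 and -0.01 in the controls and at -0.06, -0.08 and -0.03 in knockdown. Arpc3 minus that mean was thus 0.99 higher in knockdown than in control. The control SDs of the other 8 were 0.023 to 0.11, against 0.29 for Arpc3.

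**Figure D3:**
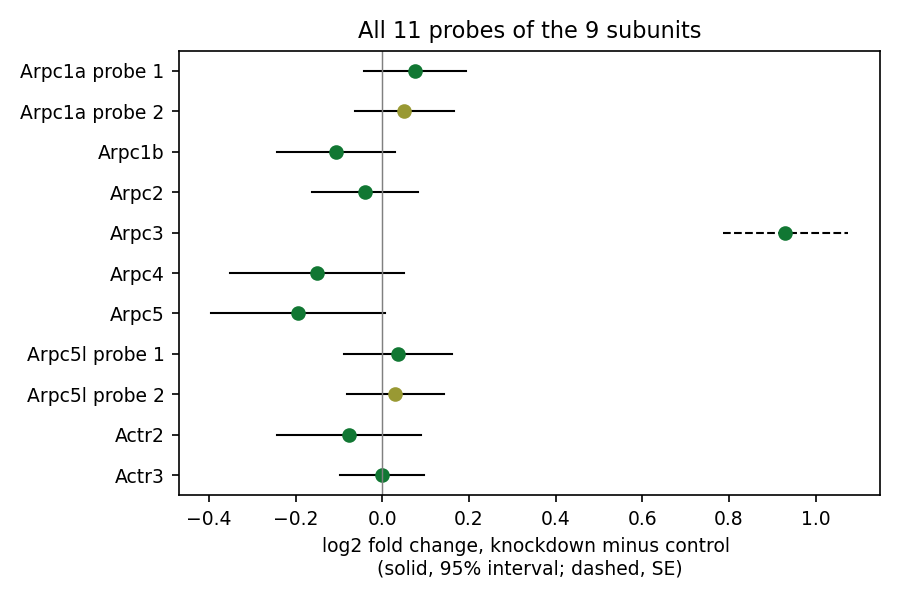
Log2 fold change (knockdown minus control, horizontal axis) of all 11 probes of the 9 subunits, with 95% intervals as solid lines; for Arpc3, which was chosen for its difference, the dashed line is the SE. The intervals of the other probes all include 0, and second probes (olive) lie beside the first.

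Some probes can read related sequence. The RefSeq gene table (assembly GRCr8, used for names and gene order only) lists 4 pseudogenes named after Arpc5l, 2 after Arpc1b and 1 each after Arpc1a, Actr2 and Actr3, so the values of these genes are uncertain to that extent, and 0 are named after Arpc2, Arpc3, Arpc4 or Arpc5. Arpc1a and Arpc1b lie next to each other. A long non-coding RNA gene and a small nucleolar RNA gene overlap the Arpc3 interval in that assembly. Other genes overlap Arpc1a, Arpc1b, Arpc2, Arpc5l and Actr2 there, and the positions of the probes were not analysed here. The protein-coding genes around Arpc3 in that assembly differed little between the groups. The nearest on either side, Anapc7 of the anaphase-promoting complex and the GTPase gene Gpn3, differed between the groups by 0.01 ± 0.07 and 0.06 ± 0.05 on the log2 scale (SE, n = 3 per group; limma adjusted p = 0.973 and 0.653). The next ones, Atp2a2, Fam216a, Ift81 and Vps29, ranged from -0.10 to 0.09. These neighbours were looked up after the Arpc3 values were known.

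Genes that act with the complex were examined next, from lists of known partners. Of 113 listed activators, inhibitors, upstream GTPases, other nucleators and actin turnover genes, 89 were matched on the array and 79 were tested. None passed limma's adjusted test in either direction, and at an unadjusted p under 0.05 there were 7 with higher means (background 5.90%) and 3 with lower means (background 8.24%). Their median log2 fold change was -0.01, equal to that of all features. Groups did not overlap in 9 of the 79 with knockdown higher (background 9.93%) and in 7 with knockdown lower (background 11.9%). With array quality weights, which gave most weight to knockdown 3, Coro1c, Arf6 and Washc2c passed (limma adjusted p of 0.0442, 0.0468 and 0.0459), as did 877 of all features.

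Among the activators, the 4 tested genes of the WASP list had a median of 0.01. The list holds Wasl and Whamm of the WASP family and the genes of their binding partners, Wipf1 and Wipf2. Wasl, the ubiquitous WASP that Cdc42 opens, had 0.01 ± 0.05 (SE, n = 3 per group). Whamm, which works on internal membranes, had -0.04 ± 0.10. Wipf1 had 0.004 ± 0.04, and Wipf2 had 0.04 ± 0.13 on a dim probe. Of 8 tested WAVE complex genes, which answer to Rac at the leading edge, 4 had higher and 4 lower means. The scaffold gene Nckap1 had 0.13 ± 0.05 on the brighter of its probes (limma adjusted p = 0.340) and 0.13 ± 0.04 on the other, Wasf1 had -0.12 ± 0.04 and Wasf2 0.11 ± 0.07. The Wasf2 probe was dim, with a control mean log2 value of -5.89. Wasf2 had 0.32 with a normexp background and 0.00018 with quantile normalization added. Of 6 tested genes of the WASH complex and its capping protein, which form branched actin on endosomes, Washc2c had the smallest p, with -0.18 ± 0.06 (limma adjusted p = 0.260). The signs of Wasl, Whamm and Wasf1 turned under some alternatives. The GTPase genes Rac1 and Cdc42 had -0.03 ± 0.06 and -0.02 ± 0.05, near 0 and with signs that turned under some alternatives. Of 21 tested GTPases and adaptors, 17 had lower means (median -0.03; background 52.8%), and the membrane traffic GTPase gene Arf6 had -0.18 ± 0.04 (limma adjusted p = 0.207).

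Among the 9 tested genes that hold or release branches, the coronin gene Coro1c had the smallest p. Coronins bind filaments and act on Arp2/3 branches. Coro1c log2 values were 3.75, 3.55 and 3.69 in controls and 3.96, 3.99 and 3.94 in knockdown. Coro1c was thus higher on every knockdown array than on any control, as were 9.93% of all features, and lowest in control 2. Its log2 fold change was 0.30 ± 0.06 on the brighter probe (SE, n = 3 per group; limma adjusted p = 0.197) and 0.12 ± 0.08 on the second. Coro1a, a coronin of leukocytes, was dim and had 0.64 ± 0.23 (limma adjusted p = 0.305), with overlapping groups; with a normexp background and quantile normalization it had 0.22. The branch stabiliser cortactin gave unequal values by probe, with -0.04 ± 0.06 on the brightest Cttn probe and -0.22 ± 0.05 and -0.30 ± 0.09 on the others. Arpin, which inhibits the complex, was well above background on 3 of 6 arrays and was not tested.

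No gene among the other nucleators and the actin supply passed the adjusted test. Of 18 listed formins and other nucleators, 5 were matched on the array and 2 of these passed the detection filter. Lmod1, a smooth muscle nucleator, had 0.40 ± 0.10 (SE, n = 3 per group, limma adjusted p = 0.207) and 0.08 ± 0.08 on its second probe. Its groups did not overlap, as in 9.93% of all features with knockdown higher. The cytoplasmic actin genes Actb and Actg1 had -0.08 ± 0.05 and 0.01 ± 0.05 (-0.07 on the second Actg1 probe). The 23 tested actin and turnover genes ranged from -0.35 ± 0.16 for Cfl1 to 0.41 ± 0.59 for Cap2. The Cap2 probe was dim and was well above background on 5 of 6 arrays. The median of the 23 genes was -0.01. Among them the filament-severing gene Dstn had 0.16 ± 0.06, 0.21 ± 0.08 and 0.24 ± 0.07 on 3 probes (limma adjusted p = 0.318 on the brightest), and the cofilin phosphatase gene Ssh3 had 0.12 ± 0.04. Outside the complex, the dynactin gene Actr1b had 0.13 ± 0.05 and Actr3b, a paralog of Actr3, -0.26 ± 0.11 on a dim probe (limma adjusted p = 0.357; 0.14 with a normexp background).

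**Figure D4:**
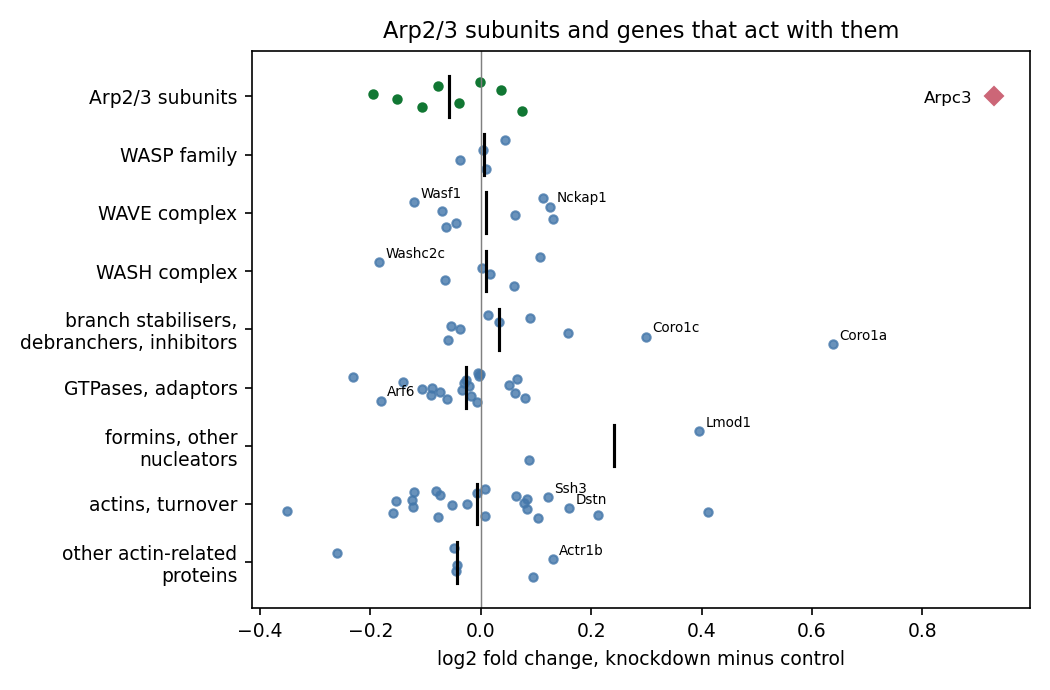
Log2 fold change (knockdown minus control, horizontal axis) of each tested gene in the Arp2/3 complex and in 8 lists of genes that act with it; points are genes, black bars are list medians (for the complex, of the 8 subunits other than Arpc3), and genes at an unadjusted p under 0.05 are named. Arpc3 lies at 0.93, and the tested genes of the lists lie between -0.35 and 0.64.

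The 5 named genes most like Arpc3 over the 6 arrays, by Pearson correlation among 10747 genes, were Mapkapk3 (r = 0.998), Naa15 (0.998), Ywhah (0.997), Ranbp6 (0.997) and Msn (0.997). The 6 arrays share their 2 groups, and 259 genes had r over 0.95. Mapkapk3, a kinase downstream of p38, was close to Arpc3 in size too, with log2 values of -0.91, -1.51 and -1.16 in controls and -0.31, -0.26 and -0.23 in knockdown. Its log2 fold change was 0.92 ± 0.15 (SE, n = 3 per group). Naa15, of the N-terminal acetyltransferase, had 0.53 ± 0.09, and Msn, which encodes moesin and links actin to the membrane, had 0.34 ± 0.06. Ywhah and Ranbp6 had smaller differences of 0.08 ± 0.04 and 0.26 ± 0.05. In all 5, as in Arpc3, control 2 was the lowest array, control 1 the highest of the controls and the knockdown arrays lay above them; the genes were selected for that order.

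**Figure D5:**
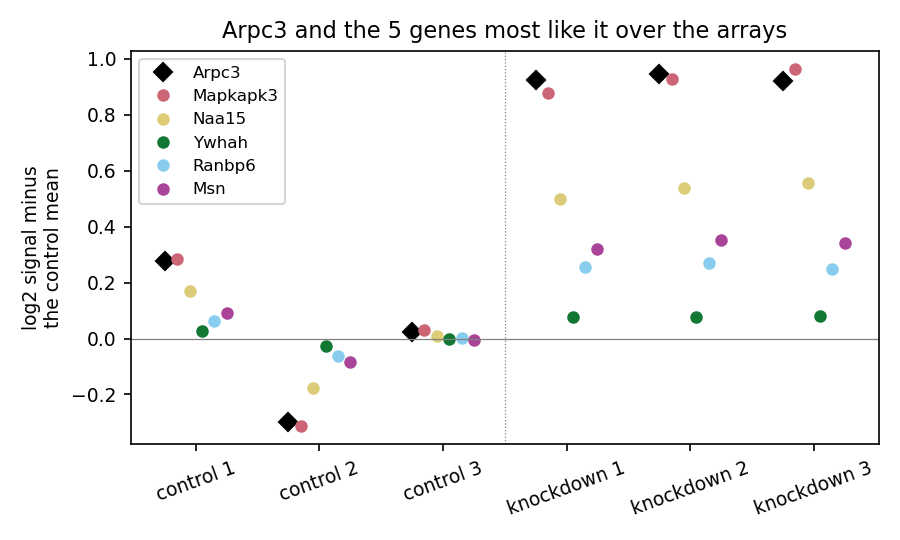
Log2 signal minus the gene's control mean (vertical axis, log2 units) on each array for Arpc3 and the 5 genes with the highest Pearson correlation with it; each point is 1 array. All 6 genes are lowest in control 2 and higher in the 3 knockdown arrays than in any control, with Arpc3 and Mapkapk3 near 0.9 in knockdown.

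Markers of other cells were set beside the Arpc3 result, and their part in it was not tested. For 11 leukocyte markers, cells rich in the complex, the summed signal relative to the 75th percentile was 1.06 to 1.26 in controls and 1.06 to 1.13 in knockdown, and 8 of the 11, among them Cd68, Csf1r and Cd74, were well above background on all 6 arrays. Ptprc and Itgam, also among the 11, were well above background on 0 arrays. This linear sum follows its brightest marker, Cd14 (control mean log2 value of -0.74). Cd14 had a log2 fold change of -0.18, with groups that did not overlap, as in 11.9% of all features with knockdown lower. Of the 8 leukocyte markers tested, 5 had lower means (52.8% of all features) and 3 higher (47.2%), among them Coro1a at 0.64. For the 11 fibroblast markers the sum was 451 to 491 in controls and 461 to 473 in knockdown. Of the 9 tested, 3 had higher means (Fap at 0.23, Col1a2 at 0.06 and Col3a1 at 0.04). The other 6 had lower means, as did 52.8% of all features, from -0.51 for Pdgfra and -0.31 for Thy1 to -0.02 for Col1a1. For 6 mural cell markers the sum was 8.77 to 9.24 in controls and 9.68 to 11.6 in knockdown, without overlap. Among single features, 9.93% lacked overlap with knockdown higher. The sum is linear and follows the brightest markers, Cspg4 and Mcam (control mean log2 values of 2.81 and 0.62). Of the 5 tested, these 2 had log2 fold changes of 0.15 and 0.77. The other 3, Notch3, Abcc9 and Kcnj8, had -0.08, -1.14 and -1.32. Before adjustment, limma's p was below 0.05 for Mcam, Abcc9 and Kcnj8, as for 14.1% of all features. None of the 5 passed the adjusted test, and Rgs5 was well above background on 0 of 6 arrays. The sums of endothelial (0.178 to 0.225 in controls, 0.192 to 0.221 in knockdown), keratinocyte (0.147 to 0.179 and 0.139 to 0.165), skeletal muscle (1.18 to 1.34 and 1.28 to 1.39) and neuron and Schwann cell markers (0.689 to 0.917 and 0.835 to 0.888) overlapped between the groups. Well above background on all 6 arrays were 2 of 5 endothelial markers (Cdh5 and Kdr), 3 of 5 keratinocyte markers (Krt5, Krt14 and Krt15), 4 of 5 skeletal muscle markers (Myog, Ckm, Acta1 and Tnnt3) and 5 of 5 neuron and Schwann cell markers, while Pecam1, Cdh1, Epcam and Myod1 were so on 0 arrays. In bulk samples fewer cells of a type and less RNA per cell cannot be told apart.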

How the data were processed

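Per the labels' protocols, total RNA of 6 samples was labelled with Cy3 for one-colour Agilent arrays. The authors deposited scanner output with linear intensity values, background-subtracted and detrended by Agilent's Feature Extraction software (the headers give version 11.0.1.1 and the submitters' processing notes 11.0.0.1) and not normalized between arrays, with flags of 0 or 1 for spot quality, another kind of value used only as a filter. Here each deposited intensity was put on the log2 scale relative to the 75th percentile over gene spots of its array; outlier spots were left out and spots of a probe averaged. A probe was tested (20773 were) when all 3 arrays of either group read it well above background. Probes were named by RefSeq accession (18005 of 30367 matched), and the brightest stood for a gene, giving 18461 features. Groups came from the titles. The test was limma's (3.58.1, R 4.3.3) with Benjamini-Hochberg adjustment over all features, at 0.05, after a check on simulated data. Second probes have values from the same fit at probe level.

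By the scan identifiers, slide 1 held controls 1 and 2 with knockdown 2 and 3, and slide 2 the remaining pair. The members and lists were chosen with earlier results of these data known. Genes named among the regulators were, in each list, up to 3 with the largest change at an unadjusted p under 0.05 or else the smallest p, plus 9 well-known genes. The alternatives were quantile normalization, median centring, normexp background (offset 50) with and without quantile normalization, dropping the filter or asking it of all 6 arrays, averaging the probes of a gene, array quality weights, an intensity trend, replicate and slide blocks, values within slides, and leaving out each array.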

Additional observations from a re-analysis of the deposited data

How the results depend on the processing

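Arpc3 kept a log2 fold change of 0.78 to 1.07 over all alternatives, including those without 1 array, and its excess over the mean of the other 8 subunits was 0.82 to 1.14, both ends of each range coming from fits without control 1 or 2. The median of the other 8 was -0.017 within slide 1 and -0.026 within slide 2, and -0.076 to -0.018 when each array was left out; the cause was not tested. No other subunit passed the adjusted test under any alternative. The number of features past the threshold was 1 with median centring and 877 with array quality weights, under which 3 regulator genes passed, with log2 fold changes of 0.28 (Coro1c), -0.18 (Arf6) and -0.23 (Washc2c), and it was 0 whichever of the 6 arrays was left out.

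Values near 0 changed sign under some alternatives, and the cause was not tested. Actr3 had 0.022 with median centring and 0.0062 within slide 2, Arpc2 0.00061 and Arpc5l -0.0048 within slide 1. Actg1 had -0.030 with the mean of probes, -0.033 with normexp, -0.016 with quantile normalization and -0.012 within slide 1. With normexp Wasl had -0.021 (-0.0082 with quantile normalization added), Wasf1 0.0092 and Actr3b 0.14. Cdc42 had 0.0074 with array weights and 0.0069 with median centring. Within slide 2 Cttn had 0.0023, Rac1 0.049, Wasl -0.030 and Whamm 0.041. When each array was left out, the ranges were -0.017 to 0.0095 for Actr3, -0.033 to 0.031 for Actg1, -0.039 to 0.0079 for Cdc42, -0.069 to 0.013 for Cttn, -0.060 to 0.0074 for Rac1, -0.014 to 0.033 for Wasl and -0.13 to 0.021 for Whamm.

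With the replicate number as a block, Arpc3 stayed at 0.93 and 0 features passed, and the block changed no call. Deviations of arrays with the same number correlated at 0.097, 0.26 and -0.29 for replicates 1, 2 and 3, and 3 of 6 arrays correlated best with their own number, so the numbers were not taken to pair the samples. Dim probes such as those of Arpc4, Wasf2, Coro1a and Actr3b are limited by signal over background, and among the 11 subunit probes only that of Arpc3 was printed more than once on an array.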
